A study of Homo sapiens with 21 samples.

Results

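The 9 genes described here, SEC61G, LANCL2, VOPP1, MRPS17, NIPSNAP2, PSPH, CCT6A, SUMF2 and PHKG1, flank EGFR on the short arm of chromosome 7 in band 7p11. They were chosen by symbol as neighbours of EGFR, with earlier results of these data known, and are 9 of the 53515 genes counted per library. mRNA sequencing covered 21 libraries of 17 cancer cell lines, so that each of 10 drug-resistant derivatives could be set beside its parent, 1 of 7 parental cell lines. The derivatives came from long culture under the drug. From liver came HepG2, whose derivatives HepG2S1 and HepG2S3 resist sorafenib, and from pancreas PancVB, a stock of Panc 03.27, whose derivatives PancB1Q and PancB1V resist 5-fluorouracil. In lung adenocarcinoma, HCC4006P1 gave the erlotinib-resistant HCC4006ER, HCC4006P2 the gefitinib-resistant HCC4006GR and HCC827P the gefitinib-resistant HCC827GR. In ovarian carcinoma, UWB1.289 gave U10 and U100 under olaparib, while cisplatin treatment of IGROV-1 gave IGROV-1/CDDP. HCC4006P1 and HCC4006P2 are stocks of 1 cell line, and resistant lines of 1 parent share its library, so these values are not independent.

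EGFR encodes the receptor that erlotinib and gefitinib inhibit. In several tumour types, a stretch of 7p11 around EGFR is copied many times, and genes beside the receptor gene are then copied along with it; VOPP1 is also known as ECOP, after its coamplification with EGFR, and NIPSNAP2 as GBAS, after a glioblastoma amplified sequence. HCC827 is a lung line known to carry extra EGFR copies. The RNA counts do not measure DNA copies, DNA copy number was not analysed here, and in a bulk culture fewer cells with a transcript and less RNA per cell cannot be told apart. The study itself sequenced the genomes of all pairs at low coverage. It describes the parental and resistant lines as differing little, except in the HepG2-derived pairs.

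Library totals on genes ran from 9851195 to 36639473 counts, and levels are given as CPM, the gene's count scaled to its library's total, which compares a gene between libraries but not different genes. Only HepG2, HepG2S3 and HCC4006ER had 2 usable libraries. HCC4006P1 replicate 1 held no count for any of the 9 genes or EGFR, and 350 of the 463 coding genes of chromosome 7 with at least 5 CPM in replicate 2 were at 0 there (75.6%, against 14.4% over all chromosomes), so HCC4006P1 is given by replicate 2 alone. Of the liver markers, ALB stood at 12183 CPM in HepG2 but at 0 to 9.17 CPM in its resistant lines. PDX1, PRSS1 and CPA1, markers of the pancreas, were at 0 to 1.80 CPM in PancVB, PancB1Q and PancB1V. NKX2-1, a lung lineage factor, was at 15.4 to 113 CPM in HCC4006P2, HCC4006GR and both HCC827 lines and at 0 in HCC4006P1 and HCC4006ER. NAPSA, at 142.7 CPM in HCC4006P2, 35.4 in HCC827P and 12.3 in HCC827GR, was at 1.52 CPM in HCC4006GR and at most 0.332 in HCC4006P1 and HCC4006ER, and SFTPB exceeded 1.13 CPM only in HCC4006P2 (10.1 CPM), so the lung markers do not mark all 6 lung lines. PAX8, expressed in many ovarian carcinomas, was at 357 to 664 CPM in the ovarian lines, while WT1 was at most 0.488 CPM in them.

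In the GRCh37 annotation, whose build the counts share, the 9 genes span chr7:54819943-56160689, a stretch of 1.34 Mb with EGFR at chr7:55086710-55279321. SEC61G (ENSG00000132432, chr7:54819943-54827667, minus strand) is the only one before EGFR, at a distance of 259 kb. LANCL2 (ENSG00000132434, chr7:55433030-55501430, plus) is the nearest after it, at 154 kb, followed by VOPP1 (ENSG00000154978, chr7:55503749-55640681, minus) at 224 kb. The other 6 lie close together 740 to 869 kb from EGFR: NIPSNAP2 (ENSG00000146729, chr7:56019486-56067874, plus), MRPS17 (ENSG00000239789, chr7:56019570-56024193, plus), PSPH (ENSG00000146733, chr7:56078744-56119297, minus), CCT6A (ENSG00000146731, chr7:56119378-56131682, plus), SUMF2 (ENSG00000129103, chr7:56131695-56148363, plus) and PHKG1 (ENSG00000164776, chr7:56147976-56160689, minus). PSPH and CCT6A point away from each other with 80 bases between them. MRPS17 shares 25.0% of its exonic bases with NIPSNAP2 or a readthrough gene on the same strand, and its counts are therefore less certain. PHKG1 shares 14.1% of its exonic bases with SUMF2 on the opposite strand. Whether the counting used strand is not given in the sources used here, and without it their reads cannot be told apart.

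RefSeq promoter windows (GRCh38.p14, 250 bases before to 50 after the start) matched 6 of the 9 genes. Those of SEC61G, the gene with the largest excess in HCC827P, and of PHKG1 are shown because they are the first and the last gene of the stretch and differ in promoter composition. Capitals mark where CCAAT was found on either strand, and likewise the letters GGGCGG, which were searched on both strands too (a match on the opposite strand is printed as its complement).
SEC61G: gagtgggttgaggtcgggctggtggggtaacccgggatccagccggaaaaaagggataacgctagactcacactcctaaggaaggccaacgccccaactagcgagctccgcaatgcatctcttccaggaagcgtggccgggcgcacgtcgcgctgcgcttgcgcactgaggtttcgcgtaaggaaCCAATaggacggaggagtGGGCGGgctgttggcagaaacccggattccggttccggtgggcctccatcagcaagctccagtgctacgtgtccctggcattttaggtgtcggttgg
PHKG1: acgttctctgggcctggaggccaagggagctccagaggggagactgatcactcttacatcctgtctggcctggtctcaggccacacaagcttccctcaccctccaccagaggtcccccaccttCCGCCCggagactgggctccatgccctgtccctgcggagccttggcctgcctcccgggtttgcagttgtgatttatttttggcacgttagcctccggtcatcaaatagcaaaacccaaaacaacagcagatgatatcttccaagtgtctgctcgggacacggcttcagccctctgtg
The SEC61G window (chr7:54759162-54759461, minus strand) held 24 CpG, 1 CCAAT match and 1 match of GGGCGG, and the PHKG1 window (chr7:56092903-56093202, minus strand) held 9 CpG, no CCAAT match and 1 match of GGGCGG. Over all 35116 windows of 300 bases the median was 14 CpG, and 34.6% held CCAAT while 45.0% held the GGGCGG letters. TATAAA was in neither window and in 11.5% of all windows.

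The first question was how high the neighbours of EGFR stood in each cell line. HCC827P and HCC827GR stood apart: 7 of the 9 genes were higher in both HCC827 lines than in any of the other 15 cell lines, an order that 1.77% of the 16528 genes with at least 1 CPM in at least 3 cell lines showed. PSPH and PHKG1 were the exceptions. In HCC827P, 5 of the 9 genes were at least 4 times the median of the 4 parental lines of other origin (HepG2, PancVB, UWB1.289 and IGROV-1), against 5.84% of genes. EGFR itself was at 7113 and 7069 CPM in the HCC827 lines and at 24.7 to 1192 CPM elsewhere.

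SEC61G, the small gamma subunit of the Sec61 channel through which new proteins enter the endoplasmic reticulum, was at 2374 CPM in HCC827P (95% Wilson interval 2352 to 2397, counting error only) and 1655 CPM in HCC827GR (1635 to 1675). In the HCC4006 family it was at 144 CPM in HCC4006P1, 130 in HCC4006P2 and HCC4006GR alike, and 58.7 and 69.6 in the HCC4006ER libraries. In the 11 liver, pancreatic and ovarian lines it ran from 35.1 CPM in PancVB through a median of 50.6 to 76.7 in HepG2S3. The HCC827P level was thus 51.0 times the median of the 4 non-lung parental lines and 16.5 times that of HCC4006P1, the next line below the HCC827 pair. HepG2 alone, with 34.1 and 49.9 CPM, spread over most of the range of those 4 parental lines, so these 4 cannot be ranked. The HepG2S3 libraries, at 74.8 and 78.5 CPM, lay above both HepG2 libraries.

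LANCL2, a LanC-like protein linked to abscisic acid signalling, was at 600.4 CPM in HCC827P and 581 in HCC827GR. The HCC4006 lines followed at 49.97 to 65.9 CPM, and the 11 non-lung lines ran from 18.9 CPM in IGROV-1/CDDP through a median of 29.4 to 45.8 in U10. All 6 lung lines therefore had higher values than all others for LANCL2. The Wilson interval of U10 (41.9 to 50.2) overlapped those of HCC4006P2 (46.4 to 53.9) and HCC4006GR (47.9 to 55.1), so these 3 cannot be ranked. HCC827P was 21.5 times and HCC4006P1 2.36 times the median of the 4 non-lung parental lines.

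VOPP1, a vesicle-associated protein, was at 2129 CPM in HCC827P and 1732 in HCC827GR, 22.5 and 18.3 times that median. HCC4006P1 had 387 CPM, HCC4006GR 321 and HCC4006P2 253. The HCC4006ER libraries, at 116 and 130 CPM, fell within the non-lung range of 64.1 CPM in HepG2 to 212 in PancB1V (median 106).

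The 6 genes farther from EGFR showed a smaller excess in HCC827P. CCT6A, the zeta subunit of the CCT chaperonin that folds actin and tubulin, was at 2516 CPM in HCC827P and 1688 in HCC827GR, 4.51 and 3.03 times the non-lung parental median. HCC4006P1 followed at 1184 CPM and HCC4006P2 at 910 CPM, above the non-lung range of 353 to 785 CPM, while the HCC4006ER libraries had 408 and 426 CPM. MRPS17, a protein of the small mitochondrial ribosome subunit, was at 56.6 CPM in HCC827P and 39.0 in HCC827GR and between 7.47 and 17.7 CPM in the other 15 lines. Its HCC827P level was 4.17 times the non-lung parental median, but HCC4006P1 (16.2 CPM) and HCC4006P2 (10.3 CPM) did not stand above the non-lung lines, which reached 17.7 CPM in IGROV-1.

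NIPSNAP2, a mitochondrial protein, was at 222 CPM in HCC827P and 201 in HCC827GR, close above HCC4006P2 at 179 CPM. The HCC827P level was 3.89 times the non-lung parental median and only 1.24 times that of HCC4006P2. SUMF2, an endoplasmic reticulum paralog of the enzyme that activates sulfatases, was highest in HCC827GR at 644 CPM, followed by HCC827P at 416, HCC4006P1 at 374 and the HepG2S3 libraries at 298 and 285 CPM. It was lowest in HepG2, at 61.7 and 84.8 CPM.

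PSPH, the phosphatase of the last step of serine synthesis, did not follow this order. Its HepG2 libraries had 110 and 164 CPM, UWB1.289 had 120.0, and HCC827P and HCC827GR had 119 each, so these 4 lines cannot be ranked. The lowest level was 19.4 CPM in IGROV-1/CDDP. PHKG1, the muscle form of the catalytic subunit of phosphorylase kinase, was near the limit of detection, with 2 to 54 counts per library. It was at 3.53 CPM in HCC4006P2, 3.47 in HCC827GR and 3.11 in HCC827P, with overlapping Wilson intervals (2.66 to 4.68, 2.66 to 4.53 and 2.39 to 4.06), and at 0.203 to 1.24 CPM in the non-lung lines.

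**Figure D1:**
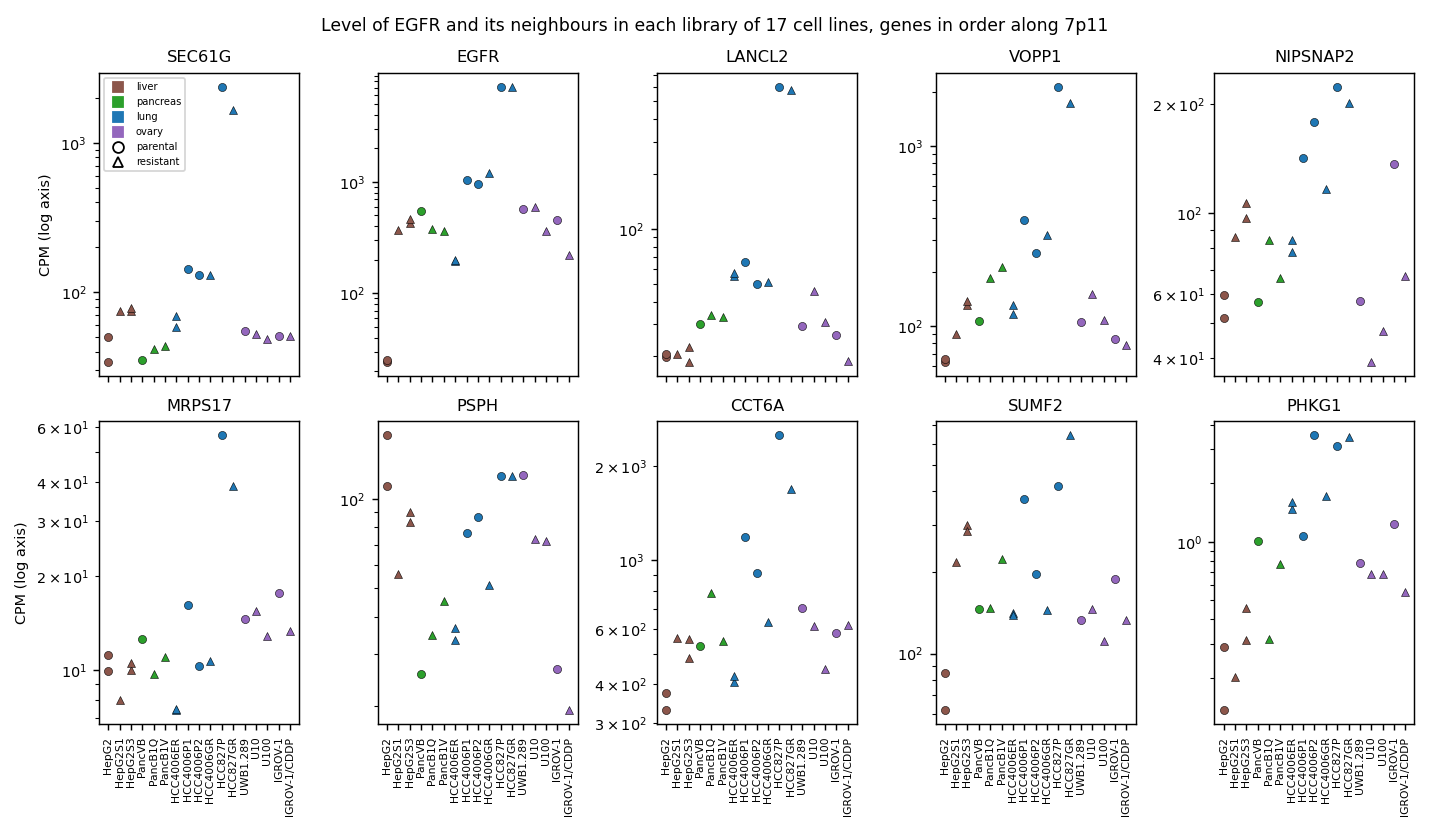
Level of EGFR and the 9 neighbouring genes (CPM, log axis, 1 point per library) in the 17 cell lines, coloured by tissue of origin, with circles for parental and triangles for resistant lines; HCC4006P1 replicate 1 is left out. HCC827P and HCC827GR stand above the other 15 lines for SEC61G, LANCL2, VOPP1, MRPS17, NIPSNAP2, CCT6A and SUMF2, but not for PSPH and PHKG1.

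**Figure D2:**
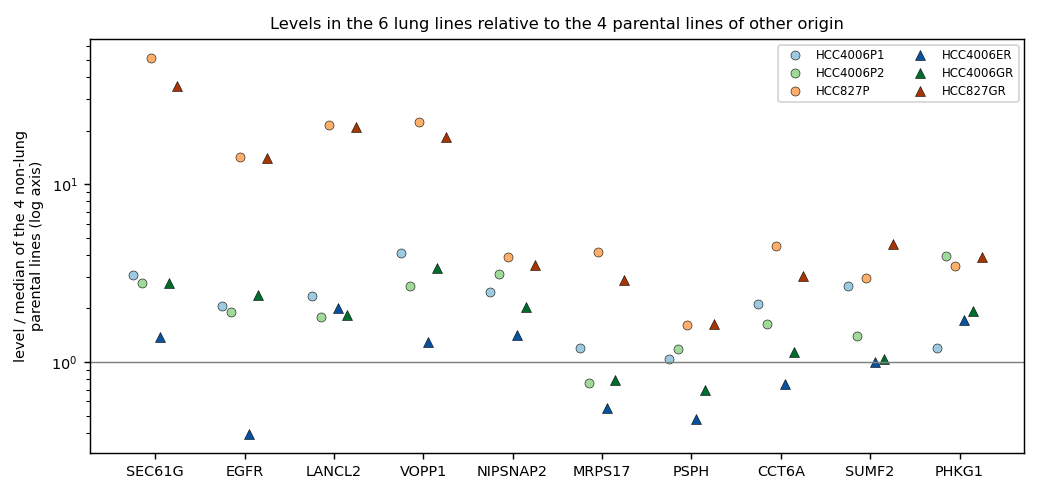
Level of each gene in the 6 lung lines divided by the median of the 4 non-lung parental lines (log axis, genes in order along the chromosome, circles parental and triangles resistant). The HCC827P ratio was 51.0 for SEC61G, 21.5 for LANCL2 and 22.5 for VOPP1, and 1.62 to 4.51 for the 6 genes farther from EGFR.

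Genes that share a function with a neighbour gave the following values in HCC827P. Among 5 translocon partners of SEC61G, none was at least 4 times the non-lung parental median in HCC827P, and their log2 differences ran from -1.43 for SEC61A2 to 0.12 for SEC63, beside 5.65 for SEC61G. The other 8 subunits of the CCT chaperonin ran from -0.53 for CCT6B to 0.81 for CCT2, beside 2.17 for CCT6A. Of 26 other small mitochondrial ribosome subunits, 1 reached 4 times the median, MRPS28 at a log2 difference of 2.06, beside 1.99 for MRPS17, and the lowest was MRPS26 at -0.74. The other serine synthesis enzymes ran from -1.40 for PHGDH to 0.68 for SHMT1, the other phosphorylase kinase subunits from -1.13 for PHKG2 to 1.08 for PHKA1, and the paralogs of LANCL2, NIPSNAP2 and SUMF2 from -1.34 for LANCL1 to -0.12 for SUMF1. The median over the 9 neighbours was 1.99, against -0.11 over all genes. These are single libraries with no test of the difference.

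Along chromosome 7, the excess of HCC827P lay around EGFR. On log2(CPM + 1), the 11 coding genes from 1 Mb before to 1.2 Mb after the EGFR start with at least 5 CPM (8 neighbours, EGFR, CHCHD2 and ZNF713) were all above the non-lung parental median, with a median difference of 2.08. CHCHD2, a mitochondrial protein just past PHKG1, differed by 2.08 and ZNF713, a zinc finger gene before NIPSNAP2, by 1.47. Over the rest of 7p the median difference was 0.02, with 102 of 195 genes above 0, and over 7q it was -0.01; coding genes off chromosome 7 had a median of -0.12. Between the window and 7q only 3 genes were expressed, 2 of them above 0, with a median difference of 1.47 (-0.18 in HCC827GR). HCC4006 showed a broader pattern. In HCC4006P1 the median was 1.21 in the EGFR window and 0.70 over the rest of 7p, where 157 of 194 genes were above 0, but -0.24 over 7q. In HCC4006P2 the window stood at 0.73 and the rest of 7p at 0.91, so the window was not above its own chromosome arm there.

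**Figure D3:**
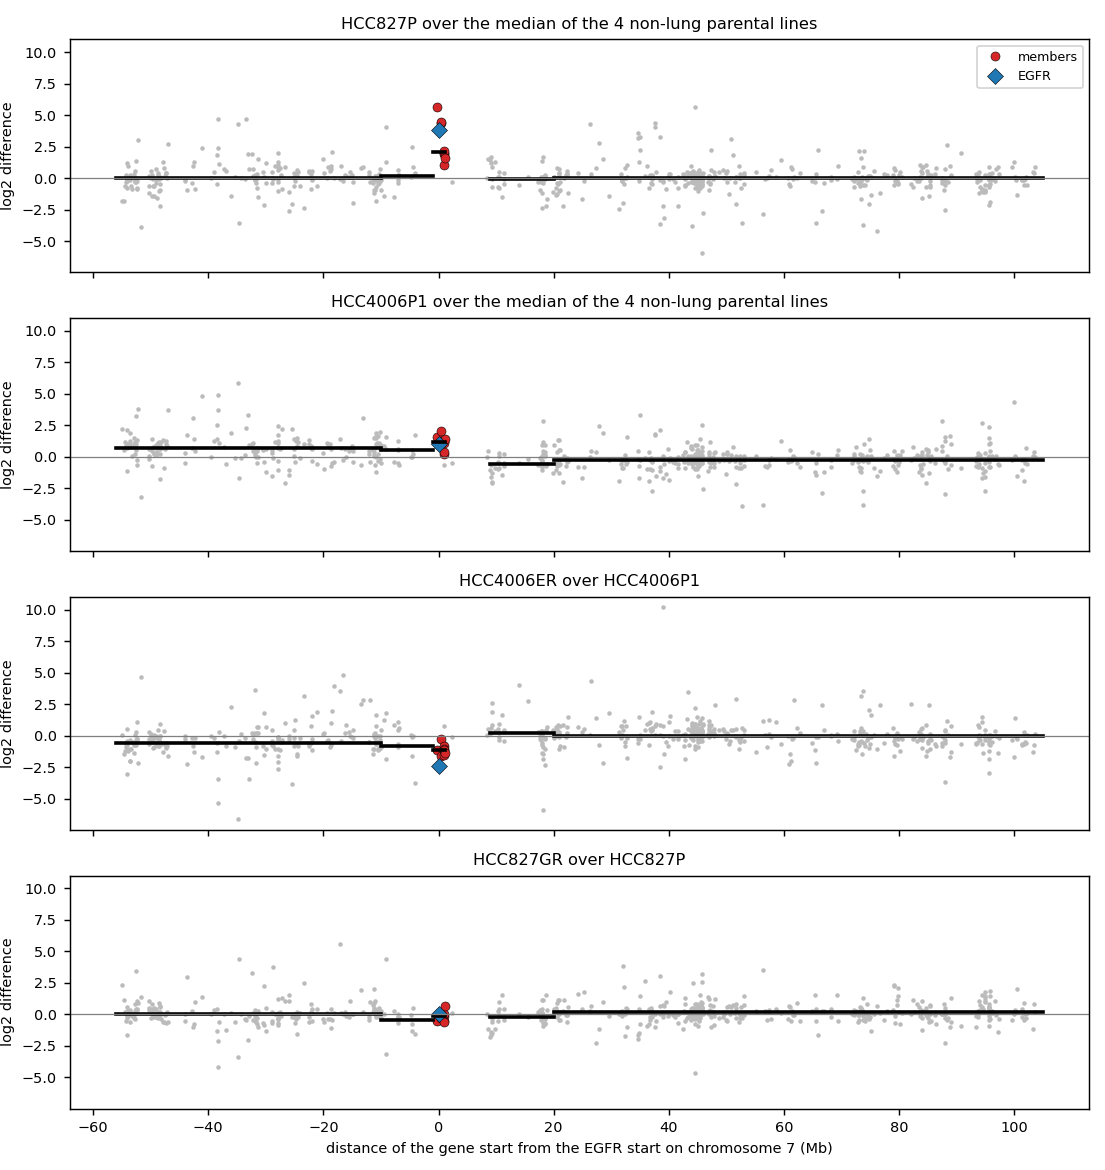
Log2 difference of coding genes along chromosome 7 by distance from the EGFR start (Mb) in 4 comparisons, on log2(CPM + 1), with the 8 neighbours above 5 CPM in red, EGFR in blue and black bars for window medians. HCC827P is raised in the EGFR window (median 2.08, against 0.02 over the rest of 7p), HCC4006P1 also over the rest of 7p (1.21 and 0.70), HCC4006ER falls from HCC4006P1 along 7p (-1.11 and -0.58), and HCC827GR stays near HCC827P (-0.12 and -0.02).

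The second question was whether the neighbours were higher in the 3 lung parental lines, from which the EGFR inhibitor-resistant lines were derived, than in the 4 other parental lines. HCC4006P1 and HCC4006P2 are stocks of 1 cell line. Both the order of levels and the tests counted them as separate lines, so the p-values treat dependent values as independent. Levels of 6 of the 9 genes (SEC61G, LANCL2, VOPP1, NIPSNAP2, CCT6A and SUMF2) did not overlap between the groups and were higher in lung, an order that 4.26% of genes showed. In the edgeR quasi-likelihood test with the spread between lines, all 9 had a fitted log2 difference above 0, with a median of 1.57 against -0.10 over the 14516 genes tested. Values were 4.35 ± 1.08 (SE) for SEC61G, 3.44 ± 0.76 for VOPP1 and 3.25 ± 0.88 for LANCL2, with adjusted p of 0.510, 0.485 and 0.510 over 7 profiles. No gene of the 9 passed the adjusted threshold of 0.05, where 0.00689% of genes did. With the HCC4006P1 and HCC4006P2 counts summed into 1 profile, 0 of the 9 passed in edgeR too. At an unadjusted p under 0.05 there were 7 of the 9, against 8.38% of genes, and the DESeq2 Wald test called 1, VOPP1 (log2 difference 3.47, adjusted p = 0.00132), against 1.90% of genes. The HCC827P library carried much of these sizes: without it the edgeR differences were 1.56 for SEC61G, 1.84 for VOPP1 and 1.13 for LANCL2, and those of PSPH (-0.04) and MRPS17 (-0.05) were below 0.

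The third question was what happened to the neighbours on acquiring resistance. Fitted log2 fold changes are resistant over parental, scaled by TMM (a trimmed mean of gene-wise ratios between libraries), and a gene passed at a Benjamini-Hochberg adjusted p under 0.05 in edgeR's quasi-likelihood test over 16858 genes. Lines with 1 library were assumed to vary like the replicated ones. Over the 10 pairs, 20 of 90 changes passed (22.2%), 8 higher and 12 lower, near the 24.5% of all genes, so the total is no result about the neighbours. Without HepG2 replicate 1 the count was 47 (52.2%, against 46.1% of all genes), and without replicate 2 it was 45 (against 45.9%).

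HCC4006ER was the pair with the most calls among the 9 genes, all in 1 direction. In this pair 7 of the 9 genes fell, against 17.8% of all genes lower (36.4% in either direction). VOPP1 went from 387 CPM in HCC4006P1 to 116 and 130 CPM in HCC4006ER, a log2 fold change of -1.79 ± 0.13 (adjusted p = 0.000195). CCT6A went from 1184 CPM to 408 and 426 CPM (-1.64 ± 0.15, adjusted p = 0.000468). In both genes the resistant libraries lay at about the same level, far below the parental one.

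SUMF2 went from 374 CPM to 141 and 138 CPM, a log2 fold change of -1.56 ± 0.18 (adjusted p = 0.00111). SEC61G went from 144 CPM to 58.7 and 69.6 CPM, or -1.30 ± 0.22 (adjusted p = 0.00515). PSPH (-1.27 ± 0.23), MRPS17 (-1.25 ± 0.17) and NIPSNAP2 (-0.94 ± 0.15) also fell. LANCL2, the gene nearest to EGFR, went only from 65.9 CPM to 55.0 and 57.01 CPM and missed the threshold (-0.37 ± 0.15, adjusted p = 0.0996). PHKG1 had 1.08 CPM in the parental and 1.47 and 1.59 CPM in the resistant libraries (0.37 ± 0.44, adjusted p = 0.551). EGFR fell by 2.53 on the log2 scale, from 1036 to 194 and 201 CPM.

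Without HCC4006ER replicate 1, 5 of the 9 falls passed, SEC61G (adjusted p = 0.0539) and PSPH (0.0613) being lost. With HCC4006P2 as the parental line, 5 passed and SUMF2 (-0.42, adjusted p = 0.115) and MRPS17 (-0.39, adjusted p = 0.123) did not. The epithelial markers also went down in this pair, EPCAM from 369 to 24.1 CPM, KRT8 from 2771 to 1096 and KRT18 from 1490 to 589 CPM, and their part in the result was not tested. On log2(CPM + 1) the window around EGFR fell by a median of 1.11 in this pair, the rest of 7p fell by 0.58 with 42 of 174 genes above 0, and 7q changed by 0.01. Of the other genes in the window, CHCHD2 fell (-0.71 ± 0.17, adjusted p = 0.0195) and ZNF713 rose (0.79 ± 0.25, adjusted p = 0.0460).

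The lists of genes that share a function with a neighbour were mixed in HCC4006ER. Of the 5 translocon partners of SEC61G, 2 rose and none fell, from SEC61B at 1.21 to SEC62 at 0.05. Of the 8 other CCT subunits, 2 rose and 1 fell, from CCT6B at 2.03 to CCT4 at -0.72. Of 6 paralogs of LANCL2, NIPSNAP2 and SUMF2, 4 rose and none fell, from NIPSNAP3B at 3.46 to LANCL3 at -0.65. The other small mitochondrial ribosome subunits went with MRPS17 in part, with 8 of 26 lower and none higher, from MRPS25 at 0.40 to MRPS11 at -0.84. Among the other serine synthesis enzymes, 1 of 4 fell, SHMT1 at -1.75, and PHGDH was highest at 0.78, and of the other 4 phosphorylase kinase subunits PHKA2 rose (1.05) and PHKA1 fell (-1.22). List medians ran from -0.34 for the ribosome subunits to 1.27 for the paralogs, against -1.27 for the 9 neighbours and 0.06 for all genes tested.

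**Figure D4:**
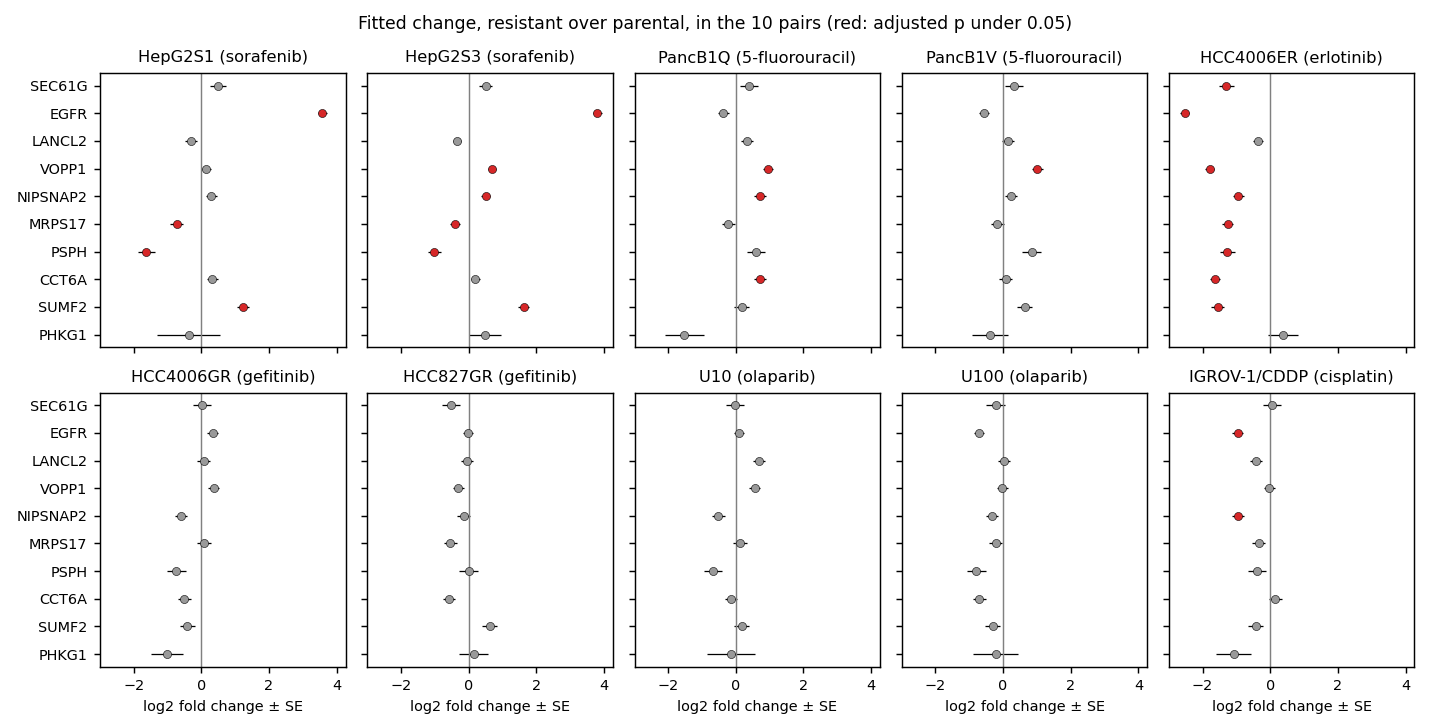
Fitted log2 fold change ± SE (resistant over parental) of EGFR and the 9 neighbours in the 10 pairs, genes in order along the chromosome; red points passed an adjusted p under 0.05 in edgeR. In HCC4006ER 7 of the 9 neighbours lie left of 0 in red, while in HCC4006GR and HCC827GR none is red.

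In the gefitinib-resistant pairs no member passed. In HCC4006GR, where 10.4% of all genes passed, 0 of the 9 did; 3 had an unadjusted p under 0.05, against 26.7% of genes, and DESeq2 called none. SEC61G stayed at 130 CPM on both sides (0.03 ± 0.27), LANCL2 went from 49.97 to 51.4 CPM (0.06 ± 0.18), and VOPP1 from 253 to 321 CPM (0.37 ± 0.16). PSPH, at 86.5 and 51.1 CPM, had -0.74 ± 0.27 (adjusted p = 0.145). With either HepG2 replicate left out, 5 of the 9 passed in this pair, 1 higher and 4 lower, against 34.8% of all genes. The median change on log2(CPM + 1) was -0.44 in the EGFR window and -0.14 over the rest of 7p.

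In HCC827GR, where 19.0% of all genes passed, 0 of the 9 did; 3 had an unadjusted p under 0.05, against 34.0% of genes, and DESeq2 called 1, CCT6A, against 14.3% of genes. SEC61G went from 2374 to 1655 CPM (-0.53 ± 0.26, adjusted p = 0.214), CCT6A from 2516 to 1688 CPM (-0.58 ± 0.18, adjusted p = 0.0713; DESeq2 adjusted p = 0.0342) and SUMF2 from 416 to 644 CPM (0.62 ± 0.22, adjusted p = 0.0943). LANCL2 (-0.05 ± 0.17), PSPH (0.00 ± 0.27) and EGFR (-0.02 ± 0.16) were at almost the same level on both sides. With HepG2 replicate 1 or 2 left out, 4 of the 9 passed, 1 higher and 3 lower, against 43.3% or 43.2% of all genes. EPCAM, an epithelial adhesion marker, went from 480 to 24.1 CPM beside these values, KRT8 from 648 to 347 and KRT18 from 566 to 248 CPM, and their part in the result was not tested. The other CCT subunits, at a median of -0.60, had 4 of 8 lower in this pair (CCT2, CCT4, CCT5 and CCT8), with fitted values from CCT6B at 2.44 to CCT5 at -0.74.

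The difference between the lung pairs was tested itself. The change in HCC4006GR minus that in HCC4006ER was called for 5 of the 9 genes, against 10.5% of genes higher (19.9% in either direction): VOPP1 (2.15 ± 0.21, adjusted p = 0.00125), MRPS17 (1.34 ± 0.27), SEC61G (1.33 ± 0.35), SUMF2 (1.14 ± 0.29) and CCT6A (1.14 ± 0.24). HCC827GR minus HCC4006ER was called for 3, against 11.1% higher (19.0% in either direction): SUMF2 (2.18 ± 0.29, adjusted p = 0.00458), VOPP1 (1.48 ± 0.21, adjusted p = 0.00570) and CCT6A (1.06 ± 0.24, adjusted p = 0.0273). HCC827GR minus HCC4006GR was called for 0 of the 9, where 9.21% of genes passed; 2 had an unadjusted p under 0.05, against 26.0% of genes, and DESeq2 called none. Both of the first differences share the HCC4006P1 and HCC4006ER libraries. Without HCC4006ER replicate 1 or replicate 2, the 8 called differences (of 27, against 16.0% of all genes) became 3 in each case (against 4.91% and 5.47%).

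In the liver pairs EGFR rose from 24.2 and 25.1 CPM to 372 CPM in HepG2S1 and 424 and 466 CPM in HepG2S3. The neighbours called in these pairs went in both directions. On log2(CPM + 1), the EGFR window rose by a median of 0.56 in HepG2S1, with 8 of 10 genes above 0, the rest of 7p by 0.57 and 7q by 0.52. For HepG2S3 the medians were 0.79, also with 8 of 10 genes above 0, 0.64 and 0.66. Coding genes off chromosome 7 had medians of 0.21 and 0.29. In HepG2S3, 3 of the 9 rose (31.3% of genes higher) and 2 fell (33.3% lower; 64.6% in either direction). SUMF2 went from 61.7 and 84.8 CPM to 298 and 285 CPM, a log2 fold change of 1.63 ± 0.16 (adjusted p = 0.000132), with no overlap of the libraries. VOPP1 went from 63.0 and 65.1 CPM to 131 and 138 CPM (0.70 ± 0.11, adjusted p = 0.00147), and NIPSNAP2 rose by 0.51 ± 0.13 (adjusted p = 0.0116).

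PSPH fell from 110 and 164 CPM to 90.5 and 83.8 CPM (-1.01 ± 0.19, adjusted p = 0.00302) while its head-to-head neighbour CCT6A had 0.20 ± 0.13 (adjusted p = 0.215), from 376 and 331 CPM to 488 and 561 CPM. MRPS17 passed as lower at -0.40 ± 0.14 (adjusted p = 0.0369). SEC61G (0.50 ± 0.19, adjusted p = 0.0514) and LANCL2 (-0.34 ± 0.13, adjusted p = 0.0514) missed the threshold. The call of MRPS17 was lost without HepG2 replicate 2 (adjusted p = 0.0537), HepG2S3 replicate 1 (0.225), HepG2S3 replicate 2 (0.148), HCC4006ER replicate 1 (0.0798) or HCC4006ER replicate 2 (0.0805), and that of NIPSNAP2 without HepG2S3 replicate 1 (0.0670). Leaving out HepG2 replicate 1 or 2 gave 7 or 6 calls in place of 5 (against 72.1% or 71.4% of all genes), and leaving out HepG2S3 replicate 1 gave 3 (against 50.7%).

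In HepG2S1, 1 gene rose (26.4% of genes higher) and 2 fell (27.9% lower; 54.3% in either direction). SUMF2 rose to 218 CPM (1.23 ± 0.18, adjusted p = 0.00144), PSPH fell to 55.8 CPM (-1.63 ± 0.25, adjusted p = 0.00179) and MRPS17 to 8.02 CPM (-0.73 ± 0.19, adjusted p = 0.0151). In both pairs the share of neighbours called was near or below that of all genes, which is no result about the neighbours. The balance also turned on scaling: with library totals in place of TMM, 5 rose and 1 fell in HepG2S1, and 5 rose and 1 fell in HepG2S3, MRPS17 being no longer called. DESeq2 called MRPS17 in neither pair (adjusted p = 0.122 in HepG2S1 and 0.236 in HepG2S3). That scaling moved the median of all genes tested from -0.01 to 0.26 in HepG2S1 and from -0.03 to 0.28 in HepG2S3. Leaving out HepG2 replicate 1 gave 5 calls in HepG2S1, against 65.2% of all genes. Beside these changes all 4 liver markers (ALB, AFP, APOA1 and SERPINA1) went from 594 to 12183 CPM in HepG2 to 0 in HepG2S1 and 0.446 to 9.17 CPM in HepG2S3, and their part in the result was not tested.

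In PancB1Q, 3 of the 9 rose (10.2% of genes higher, 18.7% in either direction) and none fell. VOPP1 went from 106 to 185 CPM (0.95 ± 0.16, adjusted p = 0.0112), NIPSNAP2 from 56.9 to 84.6 CPM (0.72 ± 0.18, adjusted p = 0.0388) and CCT6A from 531 to 785 CPM (0.71 ± 0.18, adjusted p = 0.0403). Only VOPP1 kept its call without HepG2S3 replicate 1 or 2 or HCC4006ER replicate 1 or 2, and without HepG2 replicate 1 or 2 there were 5 calls, 4 higher and 1 lower, against 46.9% and 47.0% of all genes. In PancB1V, 1 gene rose (10.4% of genes higher, 19.1% in either direction), VOPP1, from 106 to 212 CPM (1.01 ± 0.16, adjusted p = 0.00818). With either HepG2 replicate left out 3 rose, against 46.3% of all genes called in either direction. EGFR itself went from 547 to 380 and 365 CPM in these lines and did not pass (adjusted p = 0.145 and 0.0511). PancB1Q and PancB1V share the PancVB library, so their VOPP1 values are not independent. On log2(CPM + 1) the EGFR window rose by a median of 0.28 in PancB1Q, the rest of 7p by 0.43 and 7q by 0.54. For PancB1V the medians were 0.20, 0.52 and 0.67, so the window was not above the rest of 7p or 7q in either line. Coding genes off chromosome 7 had medians of -0.08 and -0.02.

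In the ovarian pairs a single change passed. NIPSNAP2 fell in IGROV-1/CDDP from 137 to 67.2 CPM (-0.95 ± 0.18, adjusted p = 0.0200), where 6.59% of genes were lower and 13.4% changed. The call was lost without HepG2S3 replicate 1 or 2 or HCC4006ER replicate 1 or 2 (adjusted p from 0.0600 to 0.0772), and with HepG2 replicate 1 or 2 left out 4 genes passed as lower, against 39.7% or 39.6% of all genes in either direction. The fall of EGFR in this pair, from 456 to 223 CPM, also passed (-0.96 ± 0.16, adjusted p = 0.0124). On log2(CPM + 1) the EGFR window fell by a median of 0.44 and the rest of 7p by 0.42, with 32 of 160 genes above 0, while 7q changed by 0.00.

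In U10 0 of the 9 passed, where 6.86% of genes did; 4 had an unadjusted p under 0.05, against 24.9% of genes, and DESeq2 called none. LANCL2 went from 29.4 to 45.8 CPM (0.68 ± 0.18, adjusted p = 0.0766). In U100 0 passed, where 2.08% of genes did; 2 had an unadjusted p under 0.05, against 19.2% of genes, and DESeq2 called 1 (2.93% of genes), CCT6A, which went from 704 to 448 CPM (-0.70 ± 0.18, edgeR adjusted p = 0.111, DESeq2 adjusted p = 0.0322). With either HepG2 replicate left out, 4 of the 9 passed in U10 and 2 in U100, against 30.9% and 23.9% of all genes. The median change on log2(CPM + 1) was -0.06 in the EGFR window and 0.12 over the rest of 7p in U10. For U100 it was -0.27 and 0.40, with 2 of 11 and 140 of 177 genes above 0. Over the 7 parental lines and their resistant lines, with the parental line as a block, none of the 9 passed in edgeR, and no gene of 16126 did (0%). No neighbour had an unadjusted p under 0.05 and DESeq2 called none. The fitted log2 differences ran from -0.50 ± 0.24 for PSPH to 0.04 ± 0.31 for VOPP1.

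Across the 17 cell lines, the genes most like EGFR by Pearson's r on log2(CPM + 1), among 15798 genes with at least 1 CPM in at least 4 lines, were TTC19 (0.89), CCT6A (0.88), VOPP1 (0.88), TRAF3IP3 (0.84) and JCAD (0.84). SEC61G and LANCL2 (0.83 each) ranked 9 and 10, SUMF2 (0.82) 12, and PSPH (0.26) 3415. The points share libraries, parental lines and the HCC827 pair. Without HCC827P and HCC827GR, r over 15 lines was 0.72 for CCT6A, 0.70 for VOPP1, 0.56 for SEC61G, 0.54 for LANCL2 and -0.11 for PSPH, while MRPS17 went from 0.75 to 0.29, and the ranks became 162 for CCT6A, 235 for VOPP1, 946 for SEC61G, 1056 for LANCL2 and 531 for SUMF2. The values are a description, and the plot of EGFR against its neighbours shows the separate place of the HCC827 lines.

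**Figure D5:**
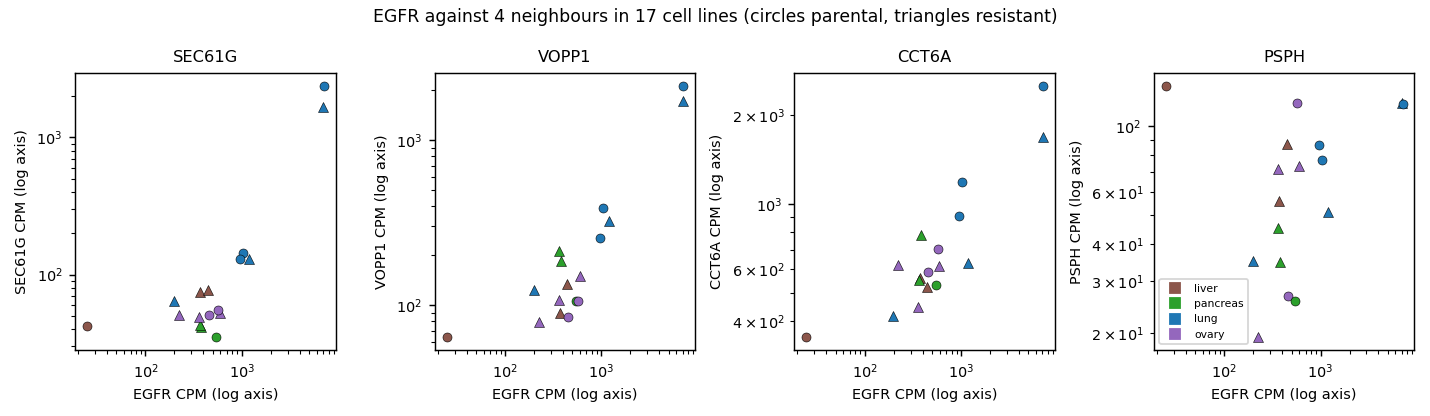
EGFR level (CPM, log axis) against SEC61G, VOPP1, CCT6A and PSPH (CPM, log axes) in the 17 cell lines, coloured by origin, circles parental and triangles resistant. HCC827P and HCC827GR lie at the upper right for SEC61G, VOPP1 and CCT6A, and within the range of the other lines for PSPH.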

How the data were processed

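The authors prepared poly(A) RNA libraries of each cell line with a stranded kit per the labels; the study's methods also name a 3′ kit, and which library used it is not given in the sources used here. Per the labels, reads were mapped to hg19 with Bowtie and TopHat, sorted with SAMtools and counted per gene with HTSeq. The deposited values are raw counts per gene, and the HTSeq settings are not given in the sources used here. Rows that name no gene were left out of totals: reads on no feature came to 6.61% to 19.0% of counted reads and ambiguous ones to 3.29% to 4.07%.

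From these counts, CPM (relative to the total count on genes) and changes on log2(CPM + 1) were computed. HCC4006P1 replicate 1 was left out. Tests used edgeR 4.0.16 in R 4.3.3 (quasi-likelihood, TMM, at least 1 CPM in at least 3 libraries) on 20 libraries with 1 mean per cell line, 3 residual degrees of freedom, and Benjamini-Hochberg adjustment over all genes; DESeq2 1.42.0 was an alternative. The SE given with edgeR values is the absolute log2 value divided by the square root of the test's F statistic, not a direct output of the fit. The scripts were tested on simulated data. Nothing says that replicates came from separate cultures, so p-values measure the spread between these libraries, which may be technical. The neighbours and the lists of related genes were chosen with earlier results of these data known. All 9 neighbours are named, and from each list the highest and the lowest change.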

Additional observations from a re-analysis of the deposited data

Results flagged for a closer look

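Among the 4 non-lung parental lines, NIPSNAP2 stood apart in IGROV-1, at 137 CPM against 55.4 in HepG2, 56.9 in PancVB and 57.5 in UWB1.289; the gap from the highest value to the next was 0.960 of the whole range on log2(CPM + 1). Chance marks about 1 in 20 such groups, and the 9 genes gave 1 such value.

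Changes in resistant over parental lines differed between the lung pairs by a test of the difference itself in edgeR. HCC4006GR minus HCC4006ER was 2.15 for VOPP1, 1.34 for MRPS17, 1.33 for SEC61G, 1.14 for SUMF2 and 1.14 for CCT6A on the log2 scale. HCC827GR minus HCC4006ER was 2.18 for SUMF2, 1.48 for VOPP1 and 1.06 for CCT6A. Each of these rests on the fall in HCC4006ER from the single usable HCC4006P1 library.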

How the results depend on the processing

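In the 10 pairs 20 member changes of 90 were called, and leaving out a replicate library gave 14 to 47 calls of 90, the highest without HepG2 replicate 1, whose replicates differed most (chi-square per degree of freedom 87.6, against 5.30 to 30.1 for the other lines with 2 libraries). A replicate block gave 12 calls and ended those of VOPP1 in PancB1Q (adjusted p = 0.0738) and PancB1V (0.0584), among others. PancVB, PancB1Q and PancB1V have 1 library each, so the block left their VOPP1 log2 fold changes at 0.95 and 1.01. It lowered the residual degrees of freedom of the fit. Deviations of same-numbered libraries correlated at 0.05 in HepG2S3 and 0.44 in HCC4006ER, the latter including HCC4006P1 replicate 1 where it has counts. Same-numbered libraries of the HCC4006ER pair thus shared part of their deviations. Whether they shared a batch is not given in the sources used here. In that pair the block ended the call of PSPH (-1.19). Since HCC4006P1 has only replicate 2 in the fit, the block set HCC4006ER replicate 2 alone against it. This repeats the fit without HCC4006ER replicate 1, where PSPH was also at -1.19. The 8 called differences between lung pairs became 3 without either HCC4006ER replicate. In the 3 lung against 4 other parental lines DESeq2 called 1 member in place of 0, and leaving out any line in turn gave 0 there and in resistant against parental lines. With TMM-scaled library sizes the median log2 change of the members was 0.0615 in place of 0.48 in HepG2S1, 0.47 in place of 0.24 in PancB1Q and -1.24 in place of -1.11 in HCC4006ER. The causes of the other shifts were not tested. Over single genes, 1127 values under an alternative kept their side of the threshold, 55 lost a call and 64 gained one. No called value changed sign, but the 1127 include uncalled values that did. Depth limits PHKG1, since 3 counts are worth 0.0819 to 0.305 CPM. HCC4006P1 replicate 2 could not be left out.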
